A study of Homo sapiens with 9 samples.

Results

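The genes described here encode the desmosome, the junction that rivets neighbouring epithelial cells together. They are the desmogleins DSG2 and DSG3, the desmocollins DSC2 and DSC3, the plaque proteins JUP, PKP1, PKP2, PKP3 and DSP, and the tetraspan membrane protein PERP. The 10 genes were chosen by name, with earlier results of these data known. They were matched to the Ensembl gene IDs of the deposited files, and they are 10 of the 41857 genes listed there. Polyadenylated RNA was sequenced from MCF10A, an immortalized, non-tumorigenic human mammary epithelial cell line, whose genotype the labels give as WT. The 9 libraries fell into 3 groups of 3, a vector-only control, deltaNp63alpha and deltaNp63beta. All 9, the controls included, received 500 ng/mL doxycycline for 24 h, and the design text calls the triplicates biological. The promoter of the constructs, and whether each line is a clone or a pool, are not given in the sources used here. The comparisons ask how expression of either p63 isoform changes mRNA levels relative to the vector.

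A desmosome joins cells through 2 kinds of desmosomal cadherin, desmogleins and desmocollins, whose outer domains adhere to those of the neighbouring cell. Inside the cell their tails bind the armadillo proteins plakoglobin (JUP) and plakophilins, which bind desmoplakin (DSP), and desmoplakin holds the keratin filaments. DSG2 and DSC2 are the most widely expressed desmosomal cadherins, including in simple epithelia and heart, whereas DSG3 and DSC3 are typical of the basal layers of stratified epithelia, the tissues whose formation requires the transcription factor p63. The alpha and beta isoforms of deltaNp63 lack the same N-terminal activation domain and differ at the C-terminus, where alpha carries a sterile alpha motif domain that beta lacks.

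Of the 10 genes, 9 reached 10 in 3 or more libraries and were tested, and PKP1 did not. All 9 were called higher with deltaNp63alpha than with vector, where 8.13% of the 15108 genes tested were called higher. With deltaNp63beta 8 of the 9 were called higher, all but DSG2, where 21.8% of all genes tested were. Between the isoforms 7 of the 9 were called higher with deltaNp63beta than with deltaNp63alpha, all but DSG2 and PKP3, against 17.4% of all genes tested. None of the 9 was called lower in any of the 3 comparisons, in which 6.37%, 19.5% and 15.5% of all genes tested were, so that 14.5%, 41.3% and 32.9% of all genes were called either way. All 9 genes had every p63 library above every vector library, with each isoform, where 16.7% of all genes tested did with deltaNp63alpha and 26.2% with deltaNp63beta, and for 7 of the 9 every deltaNp63beta library lay above every deltaNp63alpha library (22.9% of all genes tested). The median log2 fold change of the 9 was 0.59 with deltaNp63alpha and 1.16 with deltaNp63beta against vector, and 0.61 between the isoforms, whereas the medians over all genes tested were -0.0059, -0.00485 and -0.000333. Called higher with an estimate of at least 2-fold were DSG3 and DSC3 with deltaNp63alpha (1.4% of all genes tested). With deltaNp63beta they were DSG3, DSC3, DSP, JUP and PERP (4.03%), and between the isoforms DSG3 and PERP (2.69%). No test against a 2-fold change was made. Both comparisons with vector use the same 3 vector libraries. A call is a Benjamini-Hochberg adjusted p under 0.05 from limma over all 15108 genes, and fold changes are on the log2(value + 1) scale. In bulk RNA, fewer cells expressing a gene and less RNA per cell cannot be told apart.

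TP63, the gene that encodes both isoforms, was higher in every p63 library than in every vector library. Its values are per gene, so they tell neither the isoforms apart nor the constructs from the cells' own TP63. Between the isoforms TP63 differed by -0.22 (limma adjusted p = 0.479). TP63 values were 315.6, 332 and 259.3 with vector, 4426, 6983 and 6961 with deltaNp63alpha and 6719, 4183 and 4870 with deltaNp63beta. The values of each library summed to between 22483140 and 23213870. The 8 basal mammary epithelial markers, TP63 itself among them, were all at 10 or more. Their summed value ran from 121353 to 129006 with vector, 217448 to 230693 with deltaNp63alpha and 315893 to 328355 with deltaNp63beta. KRT5 was the largest part of that sum (means 55464, 92598 and 146977), and KRT17 averaged 6845, 16709 and 74504. Between the isoforms 4 of the 8 were called higher with deltaNp63beta and 2, EGFR and LAMA3, lower. The 4 general epithelial markers, all at 10 or more, summed to 12904 to 13171, 13148 to 14247 and 18929 to 20818. KRT8 (means 5290, 4292 and 5418) and KRT18 (7057, 7755 and 8862) made up most of that sum. CDH1 averaged 541.3, 1279 and 4154, and EPCAM 172.8, 311.5 and 1424. Of the 6 fibroblast markers 5 reached 10 in a library, with sums of 10562 to 10903, 7746 to 7861 and 12392 to 13478 in the order vector, deltaNp63alpha and deltaNp63beta, and COL3A1 stayed below 10. FBLN1 made up most of that sum (means 9233, 7224 and 12426), whereas DCN, decorin, averaged 1211, 349.6 and 165.9. The 5 leukocyte markers summed to 1353 to 1517, 1025 to 1319 and 1102 to 1224, and PTPRC stayed below 10. CD68 made up most of that sum (means 1111, 842.3 and 610.9), whereas CD14 averaged 23.63, 19.08 and 170.3. Of the 4 leukocyte markers tested, 2 were called higher and 2 lower with deltaNp63beta than with vector. The 4 endothelial markers summed to 169 to 230, 139 to 155 and 104 to 127, with CDH5 below 10. The 4 melanocyte markers summed to at most 65.3 and the 3 adipocyte markers to at most 11.9 in any library. The part of these marker levels in the changes below was not tested.

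Sequence before the gene start was taken from RefSeq (GRCh38.p14), which gave 10 windows for 8 of the 10 genes, each from 250 bases before to 50 bases after the start, with none for PKP2 and PKP3. The stretches below show the neighbouring genes DSG3, which had the steepest change, DSG1, which was listed at or near 0, and DSG2, which changed least, and then PERP. Each is read 5′ to 3′ on the gene's strand and ends where the window meets the start or the first exon of GENCODE release 29, and capitals mark matches on either strand of the motifs named below other than the short CATG, which is left in lower case.
DSG3, chr18:31447491-31447740, plus strand: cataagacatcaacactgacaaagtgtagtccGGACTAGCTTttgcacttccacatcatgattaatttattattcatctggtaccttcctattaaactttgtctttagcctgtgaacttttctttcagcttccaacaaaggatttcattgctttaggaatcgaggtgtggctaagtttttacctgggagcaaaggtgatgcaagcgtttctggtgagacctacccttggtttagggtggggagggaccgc
DSG1, chr18:31317910-31318088, plus strand: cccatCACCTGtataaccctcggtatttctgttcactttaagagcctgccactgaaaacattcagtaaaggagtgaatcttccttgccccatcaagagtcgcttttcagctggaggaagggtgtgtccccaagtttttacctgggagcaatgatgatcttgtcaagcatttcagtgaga
DSG2, chr18:31497927-31498042, plus strand: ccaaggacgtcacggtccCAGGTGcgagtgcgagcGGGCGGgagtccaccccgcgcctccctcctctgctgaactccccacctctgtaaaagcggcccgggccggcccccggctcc
PERP, chr6:138107512-138107669, minus strand: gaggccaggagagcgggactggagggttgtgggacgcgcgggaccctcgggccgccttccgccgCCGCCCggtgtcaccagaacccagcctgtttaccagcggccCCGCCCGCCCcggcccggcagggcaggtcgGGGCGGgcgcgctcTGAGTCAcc
In DSG3 the capitals are a p53-family half-site at -218 to -209, counted back from the start. In DSG1 they are CACCTG at -245 to -240, and in DSG2 they are CACCTG and GGGCGG. In PERP they are TGANTCA at -101 to -95 and GC boxes, of which a pair overlaps.

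Searched on both strands of the 10 windows, the p53-family half-site was found in DSG3 and in DSC3, where it reads AGGCAAGCCT at -57 to -48. It occurs in 6.64% of the 34943 RefSeq windows of the same length. The AP-1 motif TGANTCA was found in PERP alone of the 8 genes (7.72% of all windows). The GC box GGGCGG was found in 7 of the 10 windows, of DSC2, DSG2, DSP, JUP, PERP and PKP1 (44.9% of all windows). The windows of DSG3 and DSC3, and a further window of JUP, held none. The E-box CACCTG was found in 4 windows, of DSC2, DSG2, DSP and JUP (20.6%), and CATG in 2, of DSG3 and PKP1 (55.0%). A pair of CATG with 6 bases between (0.375%), the GRHL core ACCGGT (1.82%) and the TATA box TATAAA (11.6%) were in none of the 10. The windows of DSG2, DSP and PERP held 76.7%, 77% and 77% G and C and that of DSG3 44.0%, where the median of all windows was 58.7% (quartiles 47.0% and 68.0%). DSG1 and DSG3 share a run of 20 bases, aagtttttacctgggagcaa, which starts at -120 in DSG1 and at -78 in DSG3, and the next longest run shared by 2 of the 12 windows compared, those of DSG1 and DSC1 included, was 12 bases. A match describes letters only, and these matches are not measured binding.

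Of the desmogleins, DSG3 changed most of all 9 genes tested. DSG3 (chromosome 18, 31447795 to 31478702, plus strand) is the desmoglein of basal keratinocytes and the target of autoantibodies in pemphigus vulgaris. Its values were 895.5, 1057 and 954.8 with vector, 2054, 2259 and 2162 with deltaNp63alpha, and 7817, 7532 and 7706 with deltaNp63beta. The 3 groups did not overlap, and the lowest deltaNp63beta library stood above the highest deltaNp63alpha library by far more than the spread within either. The group means were 969.2 ± 81.9, 2158 ± 103 and 7685 ± 143 (SD, n = 3 each). DSG3 rose 2.23-fold with deltaNp63alpha (log2 change 1.16 ± 0.06 SE, limma adjusted p = 4.76e-07) and 7.94-fold with deltaNp63beta (2.99 ± 0.06, adjusted p = 6.17e-11). It was 3.56-fold higher with deltaNp63beta than with deltaNp63alpha (1.83 ± 0.06, adjusted p = 6.67e-09).

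DSG2 (chromosome 18, 31498043 to 31549008, plus strand), the desmoglein found in all desmosome-bearing tissues, starts 19340 bases beyond the end of DSG3 on the same strand. Its values were 8591, 8614 and 8463 with vector, 9982, 9313 and 9385 with deltaNp63alpha, and 8986, 9150 and 9438 with deltaNp63beta. Every p63 library lay above every vector library, and the libraries of the isoforms overlapped. DSG2 rose by 0.16 ± 0.04 with deltaNp63alpha (limma adjusted p = 0.0169), a 1.12-fold difference. This call was lost without vector replicate 3 (adjusted p = 0.0649), without deltaNp63alpha replicate 1 (0.0569) and without trend and robust moderation (0.08). With deltaNp63beta the difference was 0.10 (95% confidence interval 0.02 to 0.19, adjusted p = 0.0504), which passed without deltaNp63alpha replicate 1 (0.0339), without deltaNp63beta replicate 1 (0.0417) and with a minimum value of 50 (0.0456). Between the isoforms the interval ran from -0.14 to 0.03 (adjusted p = 0.291). The gene overlaps the antisense transcript DSG2-AS1, and whether the counting used strand is not given in the sources used here.

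**Figure D1:**
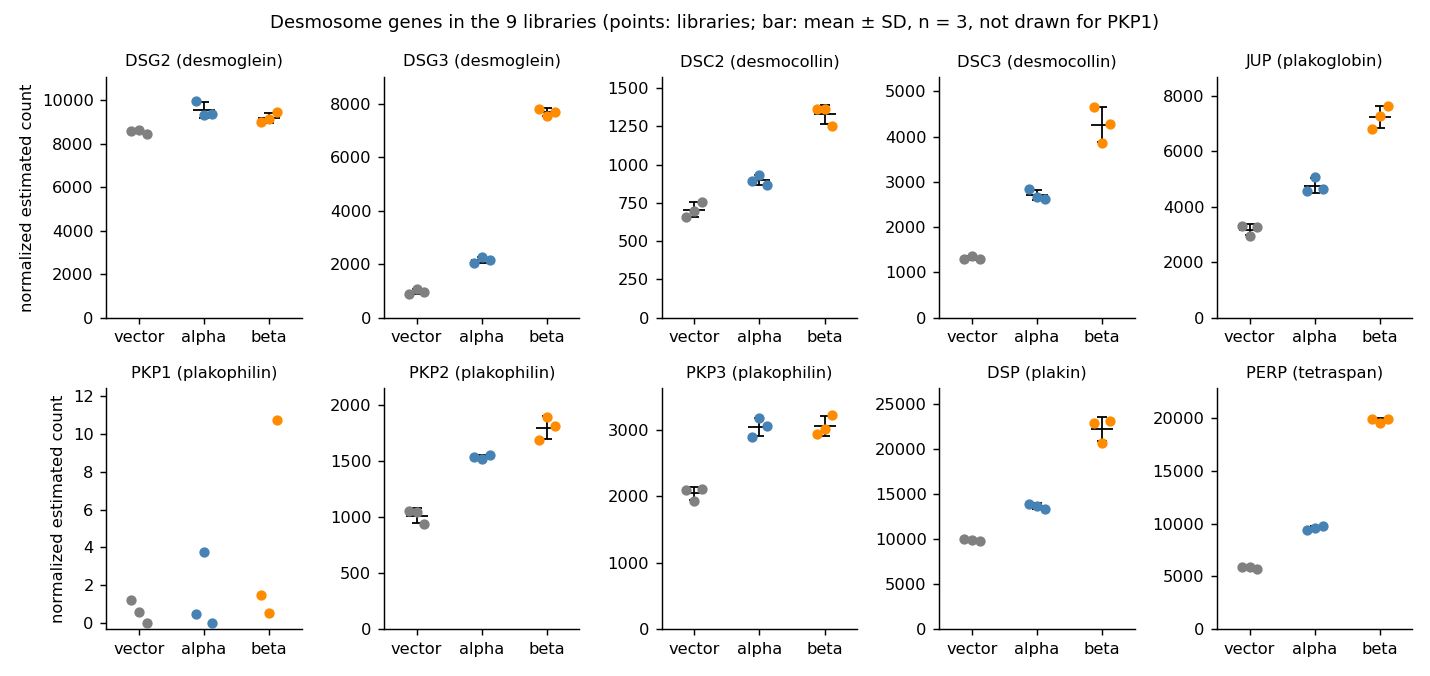
Deposited value of each of the 10 desmosome genes (vertical axis, normalized estimated count, from 0) in the 3 libraries of each group (horizontal axis). Points are libraries and bars are the mean ± SD of n = 3, left out for PKP1, whose values lie between 0 and 10.73, and the 3 groups are apart for DSG3, DSC2, DSC3, JUP, PKP2, DSP and PERP.

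Both desmocollins rose with both isoforms, DSC3 more than DSC2. DSC3 (chromosome 18, 30990008 to 31042815, minus strand), the desmocollin of basal stratified epithelium, was listed at 1288, 1363 and 1300 with vector, 2843, 2674 and 2633 with deltaNp63alpha, and 4656, 3865 and 4285 with deltaNp63beta. The groups did not overlap, and the deltaNp63beta libraries were the most spread. DSC3 rose 2.06-fold with deltaNp63alpha (1.04 ± 0.07, limma adjusted p = 1.43e-06) and 3.23-fold with deltaNp63beta (1.69 ± 0.07, adjusted p = 7.21e-09), a 1.57-fold difference between the isoforms (0.65 ± 0.07, adjusted p = 2.62e-05). DSC2 (chromosome 18, 31058840 to 31102522, minus strand), the widely expressed desmocollin, was listed at 659.6, 695.2 and 758.2 with vector, 894.6, 934.6 and 867.5 with deltaNp63alpha, and 1363, 1366 and 1254 with deltaNp63beta. These groups were also apart, with all deltaNp63alpha libraries between the others. DSC2 rose by 0.35 ± 0.07 (limma adjusted p = 0.00615) and by 0.91 ± 0.07 (adjusted p = 1.64e-06), and by 0.56 ± 0.07 between the isoforms (adjusted p = 0.000128). The antisense gene DSCAS overlaps DSC2.

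The armadillo protein plakoglobin, encoded by JUP (chromosome 17, 41754604 to 41786931, minus strand), links the cadherin tails to desmoplakin and is shared with adherens junctions. JUP was listed at 3294, 2939 and 3277 with vector, at 4577, 5063 and 4634 with deltaNp63alpha, and at 6821, 7266 and 7648 with deltaNp63beta. The 3 groups were apart. JUP rose 1.5-fold (0.59 ± 0.06, limma adjusted p = 6.53e-05) and 2.29-fold (1.19 ± 0.06, adjusted p = 5.77e-08), and 1.52-fold from deltaNp63alpha to deltaNp63beta (0.61 ± 0.06, adjusted p = 2.49e-05).

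The plakophilins bind desmoplakin and cluster the cadherins laterally. PKP2 and PKP3 rose with both isoforms, and PKP1 was not tested. PKP3 (chromosome 11, 392614 to 404908, plus strand), present in most epithelia, was listed at 2093, 1920 and 2107 with vector, 2896, 3175 and 3048 with deltaNp63alpha, and 2928, 3004 and 3226 with deltaNp63beta. Both p63 groups lay above all vector libraries and overlapped each other. PKP3 rose by 0.58 ± 0.06 with deltaNp63alpha (limma adjusted p = 4.52e-05) and by 0.58 ± 0.06 with deltaNp63beta (adjusted p = 1.21e-05), and the difference between the isoforms was 0.01 (95% confidence interval -0.12 to 0.13, adjusted p = 0.948). PKP2 (chromosome 12, 32790745 to 32896840, minus strand), the plakophilin of simple epithelia and heart, was listed at 1057, 1048 and 936 with vector, 1542, 1524 and 1556 with deltaNp63alpha, and 1689, 1899 and 1816 with deltaNp63beta. The 3 groups were apart, with a narrower gap between the isoforms than between either and vector. PKP2 rose by 0.61 ± 0.06 (limma adjusted p = 7.53e-05) and by 0.83 ± 0.06 (adjusted p = 1.8e-06). Its difference between the isoforms, 0.22 ± 0.06 (adjusted p = 0.0209), did not pass without deltaNp63alpha replicate 2 (0.0606), deltaNp63beta replicate 2 (0.0823) or deltaNp63beta replicate 3 (0.0507). PKP1 (chromosome 1, 201283452 to 201332993, plus strand), the plakophilin of suprabasal epidermis, was listed at 1.214, 0.5709 and 0 with vector, 0.5086, 3.749 and 0 with deltaNp63alpha, and 1.516, 0.5267 and 10.73 with deltaNp63beta. Only 1 library, deltaNp63beta replicate 3, reached 10, and no fold change is given. In PKP2 transcripts, 11.8% of the 31-base words also occur in transcripts of other genes, and at most 5.21% in those of the other 9 genes.

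Desmoplakin, the plakin that anchors keratin filaments to the plaque, had the highest deposited values of the 10 genes in every library, values that are not corrected for transcript length. DSP (chromosome 6, 7541575 to 7586717, plus strand) was listed at 9989, 9915 and 9801 with vector, 13896, 13703 and 13318 with deltaNp63alpha, and 22907, 20635 and 23095 with deltaNp63beta. The groups were apart, and deltaNp63beta replicate 2 was the lowest of its group. DSP rose 1.38-fold (0.46 ± 0.04, limma adjusted p = 3.31e-05) and 2.24-fold (1.16 ± 0.04, adjusted p = 6.04e-09), and 1.63-fold between the isoforms (0.70 ± 0.04, adjusted p = 6.49e-07).

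PERP (chromosome 6, 138088505 to 138107511, minus strand) encodes a membrane protein that stratified epithelia need for desmosome assembly. It was listed at 5840, 5910 and 5666 with vector, 9414, 9568 and 9809 with deltaNp63alpha, and 19933, 19586 and 19974 with deltaNp63beta. The groups were apart, and in each the highest library exceeded the lowest by a factor of 1.02 to 1.04. PERP rose 1.65-fold (0.73 ± 0.03, limma adjusted p = 1.68e-07) and 3.42-fold (1.77 ± 0.03, adjusted p = 3.5e-11), and 2.07-fold between the isoforms (1.05 ± 0.03, adjusted p = 4.84e-09). TP63 itself varied more within groups than any of the 9 tested desmosome genes: its highest library exceeded its lowest 1.58-fold with deltaNp63alpha and 1.61-fold with deltaNp63beta, whereas for the 9 genes this factor was at most 1.11 and 1.20.

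**Figure D2:**
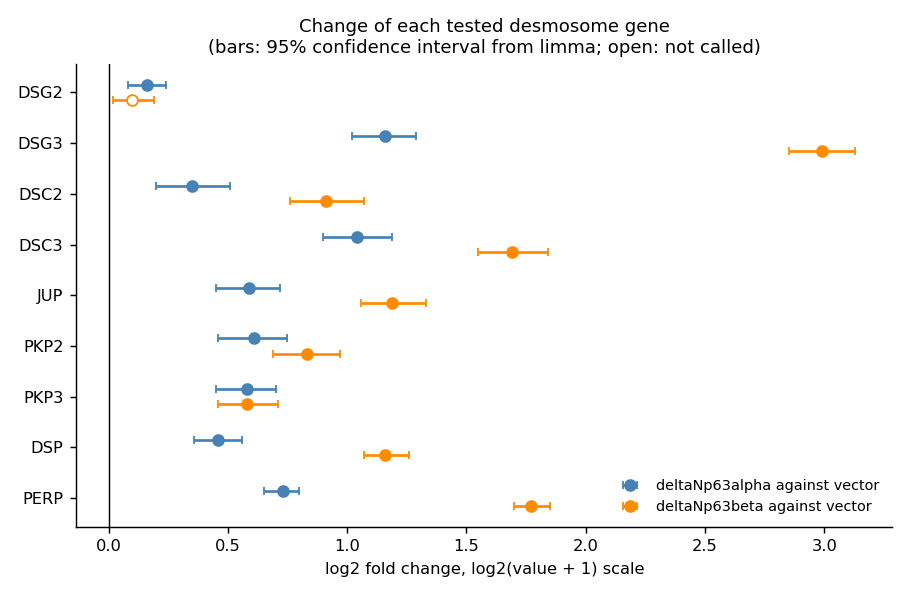
Log2 fold change against vector (horizontal axis, log2(value + 1) scale) of the 9 tested desmosome genes with deltaNp63alpha (blue) and deltaNp63beta (orange), with 95% confidence intervals from limma. The open symbol is DSG2 with deltaNp63beta (0.10, not called), DSG3 with deltaNp63beta lies farthest out (2.99), and the symbols of PKP3 coincide (0.58).

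Tested against a 1.5-fold change in place of no change, DSG3 and DSC3 passed with deltaNp63alpha (limma adjusted p = 0.000288 and 0.002), and PERP did not (0.0671). With deltaNp63beta 7 genes passed, all of those tested except DSG2 and PKP3, and between the isoforms DSG3 and PERP passed (adjusted p = 2.17e-07 and 4.6e-06).

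Levels of different genes were compared per kilobase of the longest coding transcript in GENCODE release 29. In vector libraries DSG2 had the highest level per kilobase (1467 ± 14, SD, n = 3), ahead of PERP (1353 ± 29.4), DSP (1011 ± 9.68), JUP (907 ± 57.3) and PKP3 (726 ± 37.1), in the same order in all 3 libraries. PKP2 (236 ± 15.6), DSC3 (189 ± 5.77), DSG3 (175 ± 14.8) and DSC2 (57.1 ± 4.05) followed. The SDs of DSC3 and DSG3 overlap, but DSC3 stood above DSG3 in all 3 vector libraries. With deltaNp63alpha PERP came first (2237 ± 46.5) and DSG2 next (1639 ± 63), DSP (1392 ± 30.0) and JUP (1361 ± 75.9) did not differ beyond their spread, and DSG3 (391 ± 18.6) and DSC3 (389 ± 16.0) did not either. With deltaNp63beta the order was PERP (4623 ± 49.7), DSP (2267 ± 140), JUP (2072 ± 118), DSG2 (1576 ± 39.3), DSG3 (1391 ± 25.9), PKP3 (1087 ± 55.2), DSC3 (612 ± 56.7), PKP2 (419 ± 24.6) and DSC2 (108 ± 5.15). The SDs of DSP and JUP overlap, but DSP stood above JUP in all 3 deltaNp63beta libraries. DSG3 thus moved from rank 8 with vector to rank 5 with deltaNp63beta, and DSG2 from rank 1 to rank 4. By coding length PERP, whose coding sequence of 579 bases is a small part of its transcript of 4290, was first in every group, and DSG2 ranked 2, 2 and 3. JUP stood above DSP by coding length in every library. With vector, deltaNp63alpha and deltaNp63beta the means of JUP were 1418, 2129 and 3242, and those of DSP 1150, 1583 and 2579. DSC3 then also stood above PKP2 with vector (490 against 383) and above PKP3 with deltaNp63beta (1588 against 1277). The order of these genes thus depends on the length used. The longest DSC2 transcript, of 12325 bases, lowers the level of DSC2 per kilobase.

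The make-up of the desmogleins shifted with each isoform. DSG3 made up 9.91%, 11.5% and 10.6% of summed DSG2 and DSG3 per kilobase in the vector libraries, 17.8%, 20.4% and 19.6% with deltaNp63alpha, and 47.9%, 46.5% and 46.3% with deltaNp63beta. The groups did not overlap. The log2 ratio of DSG3 to DSG2 values, which does not depend on library scaling or gene length for its differences, was -3.14 ± 0.12, -2.15 ± 0.12 and -0.26 ± 0.05 (SD, n = 3). The 3 groups differed in an exact permutation test of the F statistic (p = 0.00357, the smallest that 3, 3 and 3 libraries can give; adjusted p = 0.00833 over the 7 ratios computed). Between any 2 groups the smallest exact two-sided permutation p is 0.1, which this ratio reached for all 3 pairs, so no pair of groups can pass 0.05.

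**Figure D3:**
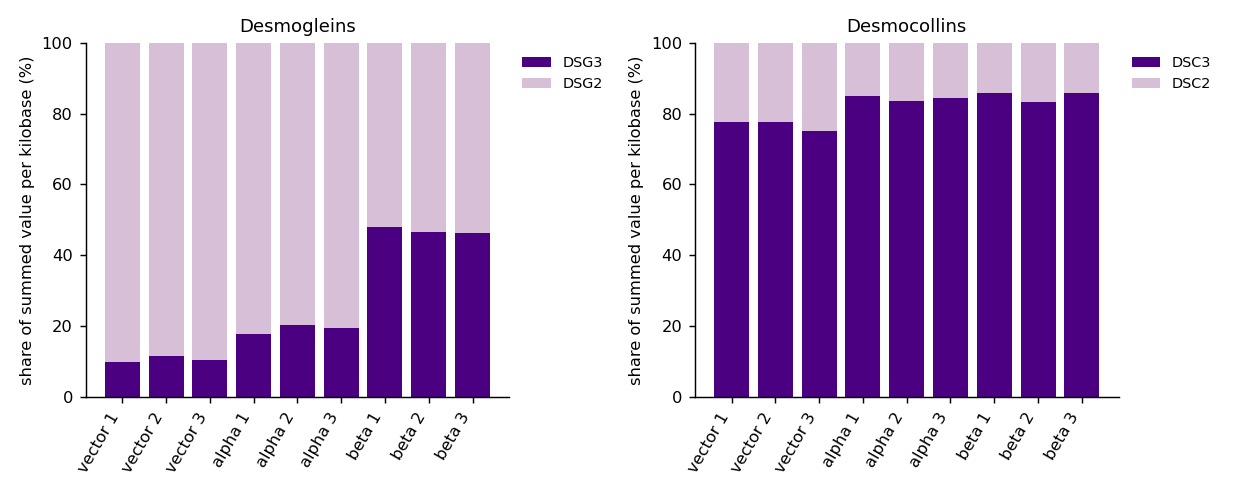
Share of each desmoglein (left) and each desmocollin (right) in the sum of its family per kilobase of transcript (vertical axis, percent), 1 bar per library. The DSG3 share was 9.91% to 11.5% with vector, 17.8% to 20.4% with deltaNp63alpha and 46.3% to 47.9% with deltaNp63beta, and the DSC3 share was 75.2% to 77.6%, 83.5% to 84.9% and 83.3% to 85.8%.

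DSC3 was already the larger part of the desmocollins in vector libraries (76.8% ± 1.38) and made up 84.2% ± 0.701 with deltaNp63alpha and 85.0% ± 1.42 with deltaNp63beta, or 65.3%, 75.2% and 76.3% by coding length. The log2 ratio of DSC3 to DSC2 was 0.90, 1.59 and 1.68 (exact permutation p = 0.0143 over 3 groups, adjusted p = 0.02), and the isoforms differed by 0.09 (exact permutation p = 0.4). The ratio of DSG3 to DSC3 was -0.44, -0.33 and 0.85 on the log2 scale (exact permutation p = 0.0107, adjusted p = 0.0187). Its vector and deltaNp63alpha libraries overlapped (exact permutation p = 0.3), and all deltaNp63beta libraries lay above both. Summed over the 4 desmosomal cadherins, the level per kilobase was 1889 ± 27.5, 2492 ± 62.2 and 3687 ± 77.5, that is 1.32 and 1.95 times the vector level. The desmogleins summed to 1.24 and 1.81 times and the desmocollins to 1.88 and 2.92 times their vector level.

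Ratios among the plaque genes and PERP were computed in the same way. The log2 ratio of PKP3 to PKP2 was 1.01 ± 0.15, 0.98 ± 0.08 and 0.76 ± 0.09 (exact permutation p = 0.0643 over 3 groups, adjusted p = 0.075). That of DSP to JUP was 1.64 ± 0.10, 1.52 ± 0.08 and 1.62 ± 0.12 (exact permutation p = 0.393, adjusted p = 0.393). PERP gained on DSP, from -0.77 ± 0.02 with vector to -0.51 ± 0.06 with deltaNp63alpha and -0.16 ± 0.08 with deltaNp63beta (exact permutation p = 0.00357, adjusted p = 0.00833). JUP likewise gained on its close relative CTNNB1, beta-catenin, from -1.01 ± 0.14 to -0.68 ± 0.12 and -0.19 ± 0.06 (exact permutation p = 0.00357, adjusted p = 0.00833). CTNNB1 values averaged 6401 ± 355, 7640 ± 575 and 8243 ± 551 (SD, n = 3).

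The 4 desmosomal cadherins sit in 1 cluster on chromosome 18, where the desmocollins lie on the minus strand in the order DSC3, DSC2 and DSC1 and the desmogleins on the plus strand in the order DSG1, DSG4, DSG3 and DSG2. The 3 other genes of the cluster stayed at or near 0. DSC1 was listed at 3.664 or less and DSG1 at 2.14 or less in every library, and DSG4 at 0 in all 9. DSG3 and DSG2, separated by 19340 bases, had log2 changes of 2.99 and 0.10 with deltaNp63beta, and DSC3 and DSC2, separated by 16024 bases, of 1.69 and 0.91. Beyond DSG2, TTR was listed at 3.074 or less, and on the far side of DSC3 the classical cadherin CDH2, or N-cadherin, which lies 2812561 bases away, fell by 0.73 on the log2 scale with deltaNp63alpha (limma adjusted p = 3.29e-06) and by 1.02 with deltaNp63beta (adjusted p = 5.33e-08).

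**Figure D4:**
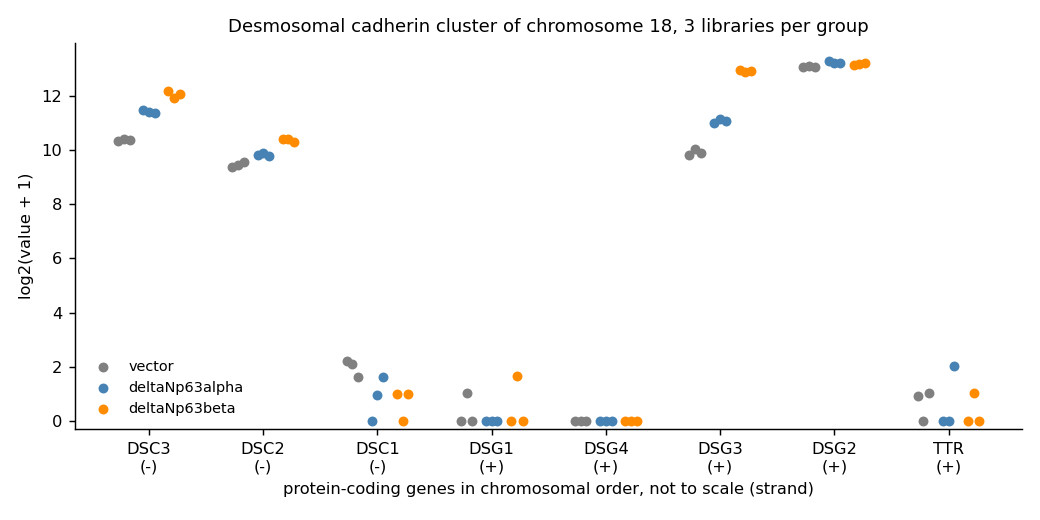
Log2(value + 1) of the desmosomal cadherin genes of chromosome 18 and TTR (horizontal axis, chromosomal order, not to scale, strand in parentheses), 1 point per library. DSC3, DSC2, DSG3 and DSG2 lie above 9, whereas DSC1, DSG1, DSG4 and TTR are at or near 0 in the 9 libraries.

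Of 10 further desmosome family and plaque linker genes, 6 were tested, of which 3 were called higher with deltaNp63alpha, 5 with deltaNp63beta and none lower. The median changes of the 6 were 0.26 and 0.505. Among all genes tested 8.13% and 21.8% were called higher, and 6.37% and 19.5% lower. PPL, which encodes the plakin periplakin, was at 570.5 ± 33.0 with vector and rose by 0.54 ± 0.07 with deltaNp63alpha (limma adjusted p = 0.000246) and by 2.02 ± 0.07 with deltaNp63beta (adjusted p = 1.98e-09), to 2313 ± 71.1. KAZN, kazrin, a binding partner of periplakin, rose by 0.71 ± 0.12 (limma adjusted p = 0.0024) and 1.31 ± 0.12 (adjusted p = 7.85e-06). PKP4, an armadillo protein related to the plakophilins, rose by 0.26 ± 0.05 (limma adjusted p = 0.00579) and 0.29 ± 0.05 (adjusted p = 0.000874). EVPL, envoplakin, differed by 0.26 with deltaNp63alpha (limma adjusted p = 0.0531, but 0.0227 without vector replicate 1 and 0.0292 without deltaNp63beta replicate 1) and rose by 0.41 ± 0.08 with deltaNp63beta (adjusted p = 0.00199). LMO7 differed by 0.18 (limma adjusted p = 0.247, but 0.0227 without vector replicate 2) and rose by 0.60 ± 0.09 with deltaNp63beta (adjusted p = 0.000412), and PNN had differences of 0.01 and 0.00 (adjusted p = 0.914 and 0.959). CDSN, corneodesmosin, a protein of cornified desmosomes, was listed between 0 and 9.21 and was not tested, nor were DSG1, DSG4 and DSC1.

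Filament genes were called in both directions. Of 12 keratin and other filament genes, 6 were called higher and 4 lower with deltaNp63alpha, and 8 higher and 3 lower with deltaNp63beta. Their medians were 0.44 and 1.12. Over all genes tested, 8.13% and 21.8% were called higher and 6.37% and 19.5% lower. The basal keratins KRT5 and KRT14 rose by 0.74 ± 0.03 and 1.75 ± 0.13 with deltaNp63alpha (limma adjusted p = 1.71e-07 and 4.18e-06), and by 1.41 ± 0.03 and 4.26 ± 0.13 with deltaNp63beta (adjusted p = 2.4e-10 and 8.15e-10). KRT17 rose by 1.29 ± 0.05 and 3.44 ± 0.05 (limma adjusted p = 8.05e-08 and 1.04e-11). KRT16 fell by 0.61 with deltaNp63alpha (limma adjusted p = 0.0137, and 0.0509 without vector replicate 1) and rose by 3.18 ± 0.14 with deltaNp63beta (adjusted p = 1.96e-08). VIM, vimentin, a filament of mesenchymal cells, fell by 0.18 (limma adjusted p = 0.00768, and 0.0652 without trend and robust moderation) and by 0.85 (adjusted p = 1.53e-08). KRT19, a keratin of simple epithelia, fell by 1.52 with deltaNp63alpha (limma adjusted p = 0.0484), a call lost under 12 of 20 alternatives, among them leaving out any 1 of the vector or deltaNp63alpha libraries (adjusted p up to 0.169), and by 2.04 with deltaNp63beta (adjusted p = 0.00429). The sequences of keratin genes and their pseudogenes are alike, so values of single keratins are uncertain where reads could be shared.

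Genes of the other epithelial junctions were counted in the same way. With deltaNp63alpha 8.13% of all genes tested were called higher and 6.37% lower, and with deltaNp63beta 21.8% and 19.5%. Of 15 adherens junction genes, 5 were called higher and 3 lower with deltaNp63alpha, and 9 higher and 4 lower with deltaNp63beta, with medians of 0.11 and 0.36. With deltaNp63alpha the calls of CTNND1 (higher, limma adjusted p = 0.0287) and NECTIN3 (lower, adjusted p = 0.0218) were each lost under 5 of 20 alternatives. CDH1, E-cadherin, rose by 1.25 ± 0.11 (limma adjusted p = 1.76e-05) and 2.95 ± 0.11 (adjusted p = 5.23e-09), and CDH3, P-cadherin, by 0.83 ± 0.08 (adjusted p = 3.06e-05) and 2.11 ± 0.08 (adjusted p = 5.43e-09). NECTIN4 fell by 1.55 with deltaNp63alpha (limma adjusted p = 0.00199) and differed by 0.04 with deltaNp63beta (adjusted p = 0.928). Of 12 tight junction genes, 5 were called higher with deltaNp63alpha and 10 with deltaNp63beta, none lower, with medians of 0.31 and 1.86. The call of CLDN7 with deltaNp63alpha (limma adjusted p = 0.0244) was lost under 5 of 20 alternatives. CLDN1, claudin 1, a seal of the epidermal tight junction, was at 202 ± 15.5 with vector, 190.1 ± 26.1 with deltaNp63alpha (difference -0.09, limma adjusted p = 0.628) and 2752 ± 55.2 with deltaNp63beta (3.76 ± 0.10, adjusted p = 5.01e-10). The difference between the isoforms, 3.86 ± 0.10, passed (limma adjusted p = 1.47e-09). No test was made of the desmosome genes as a group against these lists.

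**Figure D5:**
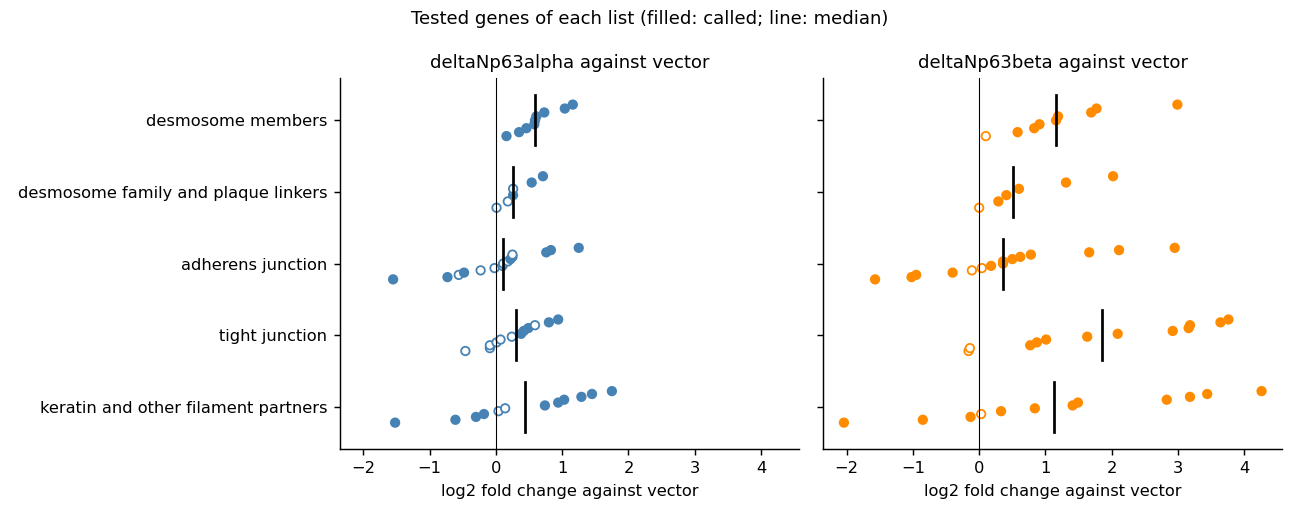
Log2 fold change against vector (horizontal axis) of each tested gene of 5 lists with deltaNp63alpha (left) and deltaNp63beta (right), filled where called, with the list median as a line. The desmosome genes all lie at or above 0.10, with medians of 0.59 and 1.16, whereas adherens junction and filament genes lie on both sides of 0.

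Kinases, proteases and receptors that act on desmosomal proteins were measured as well. Of 16 such genes, 4 were called higher and 1 lower with deltaNp63alpha, and 6 higher and 3 lower with deltaNp63beta, with medians of 0.045 and 0.155. The shares called lower lie close to the 6.37% and 19.5% of all genes tested, of which 8.13% and 21.8% were called higher. ADAM10, a protease that sheds cadherins, was called higher with deltaNp63alpha (limma adjusted p = 0.0462), a call lost under 12 of 20 alternatives (adjusted p up to 0.167). EGFR, whose signalling is known to loosen desmosomes, rose by 0.48 ± 0.05 with deltaNp63alpha (limma adjusted p = 3.79e-05) and differed by 0.00 with deltaNp63beta (adjusted p = 0.973), a difference between the isoforms of -0.48 ± 0.05 (adjusted p = 1.8e-05). PRKCA, protein kinase C alpha, which is known to weaken desmosomal adhesion, fell by 0.46 (limma adjusted p = 0.00771) and by 0.68 (adjusted p = 0.000173). KLK5 is a protease that cleaves desmosomal cadherins at the skin surface. Its values averaged 0.3569 ± 0.618 with vector, 0.9294 ± 1.61 with deltaNp63alpha and 44.17 ± 16.1 with deltaNp63beta. It was called higher with deltaNp63beta (limma adjusted p = 0.000334), and no fold is given because the vector level is near 0. KLK5 and KLK7, both counted among the 6 called higher, reached the minimum value for testing only in deltaNp63beta libraries. Both were tested only because they were high there, so these calls add little to the values themselves.

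Of 16 regulators of epithelial junction genes, 15 were tested. With deltaNp63alpha 4 were called higher and 2 lower (8.13% and 6.37% of all genes tested). With deltaNp63beta 9 were called higher and 5 lower (21.8% and 19.5% of all genes tested). Of the 9, ZNF750 reached the minimum value for testing only in deltaNp63beta libraries, so it was tested only because it was high there. The medians were 0.00 and 0.70. GRHL3, a grainyhead-like factor, differed by -0.15 with deltaNp63alpha (limma adjusted p = 0.737) and rose by 4.64 ± 0.22 with deltaNp63beta (adjusted p = 3.7e-08). ZEB1 and ZEB2, repressors of epithelial junction genes, fell by 0.90 and 1.22 with deltaNp63alpha (limma adjusted p = 0.00149 and 0.00143) and by 1.41 and 2.46 with deltaNp63beta (adjusted p = 1.6e-05 and 1.93e-06). SNAI2, a repressor of the same kind, differed by 0.12 with deltaNp63alpha (limma adjusted p = 0.232) and fell by 0.84 with deltaNp63beta (adjusted p = 1.14e-06). TWIST1, also on the list, differed by 0.00 and 0.05 (limma adjusted p = 0.998 and 0.819).

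The tested desmosome genes other than DSG2 followed each other closely over the 9 libraries. Averaging the standardized log2 values of the 9 tested genes gave -1.15 to -1.13 in the vector libraries, 0.10 to 0.22 with deltaNp63alpha and 0.92 to 1.09 with deltaNp63beta. Pearson's r of each gene with the mean of the other 8 was highest for DSC3 (0.991) and JUP (0.978), lower for PKP3 (0.884), and lowest for DSG2 (0.606). The average was set against 10635 tested genes with a symbol and a mean of at least 100, the 9 included. Outside the 9, the genes most like it were CLCA2 (r = 0.9969), EPS8L1 (0.9961), FAT2 (0.9957), CD9 (0.9951), ATP9A (0.995) and SPINT2 (0.9942). CLCA2 was at 1037 ± 29.47, 2824 ± 152.5 and 5890 ± 139.6 in the 3 groups, and FAT2, an atypical cadherin, at 656.9 ± 56.63, 2202 ± 126.4 and 5124 ± 516.4. These correlations are descriptions over 9 libraries that fall into 3 groups, so they rest mainly on the 3 group means. How many of the 10635 genes reach such values was not counted.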

How the data were processed

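Polyadenylated RNA of 9 MCF10A libraries was measured, 3 per group. The deposited signal values are estimated counts after normalization, and the submitters' processing notes name kallisto 0.46.2, DESeq2 and the build GRCh38. Which of these tools gave the numbers is not stated, and the annotation release is not given in the sources used here. Median-of-ratios factors computed again differed between groups by at most 1.11e-10 in their mean log2 value. Whole reads were not recovered: low values lay on a step of 0.9232 to 1.11, but only 59.9% to 63.5% of values up to 20 steps were whole within 0.1 step. The precision of low values is that of a few such steps. No interval for counting error was computed.

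Genes that reached 10 in 3 or more libraries were tested with limma 3.58.1 (R 4.3.3) on log2(value + 1), with trend and robust moderation, all 9 libraries in 1 fit with no block, and Benjamini-Hochberg adjustment over 15108 genes. The fit was tested on simulated data. The pseudocount makes fold changes of low genes smaller than the ratio of their means. Ratios of 2 genes were tested by exact permutation, adjusted over 7 ratios. Lengths and positions came from GENCODE release 29 (GRCh38), motif windows from RefSeq. Tables and plots were made in Python 3.11.15 (numpy 2.4.6, pandas 2.3.3, matplotlib 3.10.9). The members, lists and tests were chosen with earlier results of these data known. All 10 genes are named, and the family and linker list is named whole or as untested. From each other list genes were taken from the 6 with the smallest adjusted p against vector and those called against the majority. TWIST1 is named outside this rule, as a listed gene that was not called. KLK7 and ZNF750 are also named outside it, because only deltaNp63beta libraries brought them to the minimum value. A gene that this rule picks is not reported here. Marker lists served to check the cell type. Alternatives were 3 scalings, 3 filters, only the groups compared, a replicate block, 2 pseudocounts, no trend and robust moderation, a test against a 1.5-fold change, leaving out each library, and coding length.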

Additional observations from a re-analysis of the deposited data

How the results depend on the processing

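The number of desmosome genes called higher stayed at 8 to 9 of 9 with deltaNp63alpha, 7 to 9 with deltaNp63beta and 6 to 7 between the isoforms under the alternatives run, except that a test against a 1.5-fold change left 2 with deltaNp63alpha and 2 between the isoforms. None was called lower under any of them. Leaving out each library in turn gave 8 to 9, 8 to 9 and 6 to 7. Without 1 library the log2 ratio of PKP3 to PKP2 with deltaNp63beta against vector ran from -0.32 to -0.17, and its 3-group exact permutation test passed without vector replicate 2 (adjusted p = 0.025) and without vector replicate 3 (adjusted p = 0.0417). That of DSP to JUP ran from -0.09 to 0.03, and was 0.03 without vector replicate 2 and without deltaNp63beta replicate 2, where all libraries gave -0.03. The cause was not tested. PKP1 ratios were not computed, because PKP1 is listed at or near 0.

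Nothing in the values ties equal replicate numbers together: correlations of residuals were -0.12 to 0.08 between equally numbered libraries and -0.14 to 0.12 between the rest. With a replicate block 9, 8 and 7 desmosome genes were called higher. Permuted within the block, where the smallest exact p is 0.0278, the ratio of DSC3 to DSC2 (0.78) had an adjusted p of 0.0778, and the other 3-group calls on ratios passed at 0.0486. Equal totals shifted the mean log2 scaling factor by -0.0183 (deltaNp63alpha against vector), -0.035 (deltaNp63beta against vector) and -0.0167 (between the isoforms). The depth bears on PKP1, DSG1, DSG4 and DSC1, whose values of a few steps give no usable fold.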
